A study of Mus musculus with 9 samples.

Results

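MC3T3-E1 subclone 4, a preosteoblast line from mouse calvaria, was taken through osteogenic culture after infection with a lentivirus carrying a short hairpin RNA (shRNA) against Runx2, and the transcripts present at day 9 were set against the undifferentiated state. The members of this comparison are 6 of the 9 arrays of the series, chosen by their labels: 3 arrays of shRunx2 cells at day 9 and 3 arrays of cells with a scramble shRNA (Scr) at day 0. The other 3 arrays, of Scr cells at day 9, had the same length of culture with the control virus and show where the change of the shRunx2 cells differed. In all 3 groups infected cells had been sorted by green fluorescent protein and grown to near confluency. The day 0 cells were proliferating in medium without ascorbic acid, and both day 9 groups had then received ascorbic acid and beta-glycerophosphate. Since the groups hold no shRunx2 cells at day 0, the effect of 9 days of culture and the effect of the hairpin cannot be told apart in the comparison of shRunx2 day 9 with Scr day 0. The sources name 1 Runx2-directed shRNA and 1 cell line, and the labels call the 3 arrays of a group biological replicates. Runx2 itself is not analysed here, and how far it was depleted is not given here.

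Osteoblasts arise in stages: preosteoblasts divide, then leave the cell cycle while they deposit a collagen matrix, and later mineralize it. Runx2 is a runt-domain transcription factor without which bone does not form, and Sp7 (osterix) and the genes of bone sialoprotein and alkaline phosphatase lie downstream of it. Ascorbic acid is a cofactor of the enzymes that hydroxylate collagen, and beta-glycerophosphate is a source of phosphate for mineral.

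Values are the deposited log2 expression values, on which 1 unit is a factor of 2, with each gene read by its probe set of highest mean over the 9 arrays. A change is the difference between group means of log2 values, with its standard error (SE) from a limma model over all 9 arrays. A gene is said to have risen or fallen when its p, adjusted over all 19937 genes by Benjamini-Hochberg, was under 0.05. In shRunx2 cells at day 9, 2754 genes (13.8%) had risen above Scr day 0 and 4063 (20.4%) had fallen below it. Counts in the gene lists below are to be read beside these shares. With a change of at least 1.5-fold, 580 genes (2.91%) were higher and 556 (2.79%) lower, and at least 2-fold changes were found for 232 and 148 genes. The median change over all genes was -0.009 and the median SE was 0.048. In Scr cells over the same 9 days, 2895 genes rose (14.5%) and 3413 fell (17.1%), of which 576 (2.89%) and 449 (2.25%) moved by at least 1.5-fold. The comparisons of both day 9 groups with day 0 share the day 0 arrays, so their values are set side by side, and whether the changes differed was tested as shRunx2 day 9 against Scr day 9, in which 544 genes (2.73%) were higher and 930 (4.66%) lower. Without Scr day 9 replicate 2 those counts were 355 and 503, and 562 were lower without Scr day 9 replicate 1 and 507 without shRunx2 day 9 replicate 1. No pair of arrays of 1 group correlated below 0.998 across genes, and shRunx2 day 9 arrays correlated with Scr day 0 arrays at 0.982 to 0.983. In bulk RNA, fewer cells with a transcript and less of it per cell cannot be told apart.

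The gene that rose most was Lum, which encodes lumican, a small leucine-rich proteoglycan that binds collagen fibrils. Its log2 values were 13.73, 13.57 and 13.77 in the shRunx2 arrays and 7.55, 7.30 and 7.43 in the day 0 arrays, so the lowest of the former lay far above the highest of the latter. The change was 6.26 (SE 0.068), 76.9-fold, with an adjusted p of 7.95e-13. In Scr cells Lum changed by 6.02. The difference of 0.24 between the 2 day 9 groups had a 95% interval of 0.090 to 0.39 before adjustment. Its adjusted p was 0.0606, but it passed in some alternative fits, such as with array weights (adjusted p = 0.0111) or a replicate block (0.0141). Apod, the lipid carrier apolipoprotein D, came next. It read 13.38, 13.32 and 13.31 in shRunx2 cells and 8.30, 8.44 and 7.91 at day 0. The change was 5.12 beside 4.68 in Scr cells. The difference of 0.44 passed, but not in every alternative fit (adjusted p = 0.109 with every probe set tested). Otor, a small secreted protein of the MIA family, read 11.55, 11.59 and 11.59 against 7.0, 7.1 and 7.3, without overlap. Its change of 4.45 was larger than the 3.04 of Scr cells by 1.41 (SE 0.055, adjusted p = 1.05e-07). Others among the 15 that rose most were Pgm5, a phosphoglucomutase-like protein of adherens junctions (3.51), Abi3bp, a matrix-associated protein (3.41), Enpep, an aminopeptidase that cleaves angiotensin (3.31), and Mirlet7c-1, a let-7 precursor locus (3.11). The remaining 8 of the 15 were Ifit3, Ifi27l2a, Gbp4, Ifi203, Ifit3b, Iigp1, Gm4951 and Ifit1, of which all but Gbp4, Ifi203 and Gm4951 belong to the interferon list described further on.

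Anxa8, an annexin that binds membranes in a calcium-dependent way, fell most. It read 8.78, 8.70 and 8.79 in shRunx2 cells and 11.97, 11.95 and 12.00 at day 0, a fall of 9.29-fold with an adjusted p of 8.32e-13. Npr3, the clearance receptor of natriuretic peptides, read 8.70, 8.88 and 8.74 against 12.05, 11.95 and 11.83 and changed by -3.17. For Ppbp, a chemokine, the values were 8.60, 8.57 and 8.71 against 11.77, 11.64 and 11.62 and the change -3.05. In all 3 genes every shRunx2 array lay below every day 0 array. The other large falls were those of Steap1, a metalloreductase (-2.87), Pkp2, a desmosomal plaque protein (-2.67), Cemip, which takes part in hyaluronan breakdown (-2.64), Dio3, the deiodinase that inactivates thyroid hormone (-2.61), Fosl1, an AP-1 subunit (-2.53), Elovl7, a fatty acid elongase (-2.49), and the adhesion molecule Alcam (-2.15). In Scr cells these 7 changed by -2.69, -2.53, -2.66, -2.59, -2.55, -2.61 and -1.99 in the same order. None of the 10 named so far passed the test of the difference between shRunx2 and Scr cells at day 9, in which their values lay between -0.18 and 0.15. The last 5 of the 15, Bcat1, Aldh1l2, Chac1, Id2 and Tnfrsf9, are given with their pathways, apart from Tnfrsf9, a receptor of the TNF family that fell by 2.14.

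**Figure D1:**
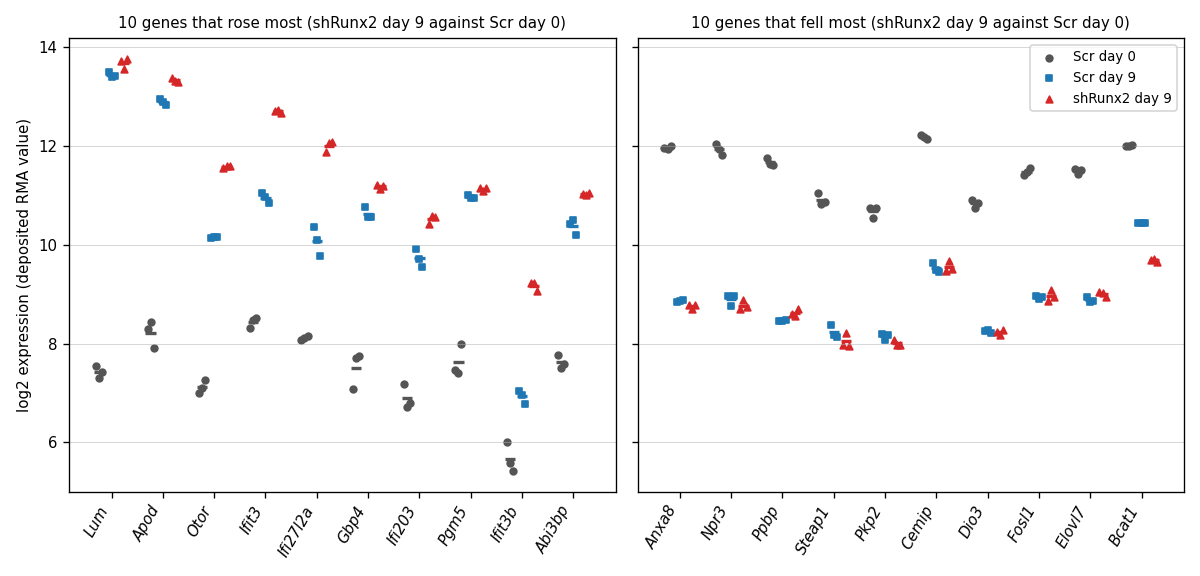
Log2 expression of each array (points) and the group mean (short lines) for the 10 genes that rose most, left, and the 10 that fell most, right, in shRunx2 cells at day 9 against Scr cells at day 0, with Scr cells at day 9 shown beside them. In each of the 20 genes the 3 shRunx2 arrays lie wholly above or wholly below the 3 day 0 arrays. The 10 genes that rose also have all shRunx2 arrays above the Scr day 9 arrays, and Anxa8, Pkp2 and Bcat1 have them below.

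Proteoglycans of the lumican family rose together in the cells with the Runx2 hairpin. These proteins sit on collagen fibrils and bear on their diameter and spacing. Of 14 measured, 11 rose and 1 fell, 8 of them by at least 1.5-fold, and their median change was 0.91 against -0.009 over all genes. Omd (osteomodulin, which binds hydroxyapatite) read 10.18, 9.84 and 10.32 against 7.29, 7.23 and 7.27 at day 0, a change of 2.85 (SE 0.1). Aspn (asporin) read 13.21, 13.03 and 13.31 against 10.76, 10.73 and 10.68, a change of 2.46 (SE 0.064). Dcn (decorin) read 14.06, 13.95 and 14.08 against 12.24, 12.31 and 12.27, a change of 1.75 (SE 0.041). In each of these the shRunx2 arrays all lay above the day 0 arrays. Ecm2, Fmod (fibromodulin), Prelp and Ogn (osteoglycin) rose by 2.02, 1.69, 0.96 and 0.87. In Scr cells 9 of the list rose and 1 fell, with a median of 0.81, and Omd, Aspn, Dcn, Ecm2 and Fmod changed by 3.36, 2.32, 1.53, 2.13 and 1.82. The difference between the day 9 groups was 0.38 for Epyc (epiphycan), which rose in shRunx2 cells by 0.46 and read 0.081 in Scr cells (adjusted p of the difference = 0.00025). Bgn (biglycan) did not pass the test in either group (0.069 in shRunx2 and 0.006 in Scr cells).

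The genes of collagen I did not pass the test, while several other collagen chains rose. Of 23 chains, 15 rose and 4 fell, with a median of 0.15, and without shRunx2 day 9 replicate 1 the first count was 10. Col1a1 read 13.58, 13.56 and 13.54 in shRunx2 cells and 13.45, 13.55 and 13.57 at day 0 (change 0.037, 95% interval -0.049 to 0.12), and Col1a2 changed by 0.044 (95% interval -0.034 to 0.12). The groups overlapped for both. Col15a1, a basement membrane collagen, rose by 0.85 (SE 0.04), Col8a1 by 0.78, Col24a1 by 0.63, Col3a1 by 0.59 and Col6a2 by 0.58. Those that fell were Col8a2 (-0.48), Col5a2 (-0.39), Col5a1 (-0.32) and Col12a1 (-0.28). In the test of the difference 5 chains were lower in shRunx2 than in Scr cells and 1 higher, with the largest differences at Col15a1 (-0.38, adjusted p = 0.000146), Col5a2 (-0.29, adjusted p = 0.00243) and Col3a1 (-0.28, adjusted p = 0.000864). The higher one, Col8a1 (0.15), did not pass without any 1 of the Scr day 9 arrays, without shRunx2 day 9 replicate 2 or 3 or without Scr day 0 replicate 2 (highest adjusted p = 0.11). Col11a1 (-0.19), one of the 5, did not pass without any 1 of the 6 day 9 arrays or without Scr day 0 replicate 3 (highest adjusted p = 0.168).

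Among 27 glycoproteins and elastic fibre genes 8 rose and 8 fell (median 0.005), beside 13.8% and 20.4% of all genes. Sparcl1, a relative of osteonectin, read 12.34, 12.39 and 12.33 against 9.82, 9.74 and 9.72 at day 0 and rose by 2.59 (SE 0.038). Tnn (tenascin-W, found at sites of bone formation) read 10.94, 10.96 and 10.88 against 9.59, 9.49 and 9.48 and rose by 1.41 (SE 0.04). Both rose more than in Scr cells, by 0.58 (adjusted p = 3.94e-06) and 0.80 (adjusted p = 8.1e-07). Tnc (tenascin-C) fell by 0.18 in shRunx2 cells but rose by 0.35 in Scr cells. Mfap5, a microfibril protein, rose by 1.51, and Ltbp2, Cthrc1 and Thbs1 fell by 0.54, 0.48 and 0.39.

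**Figure D2:**
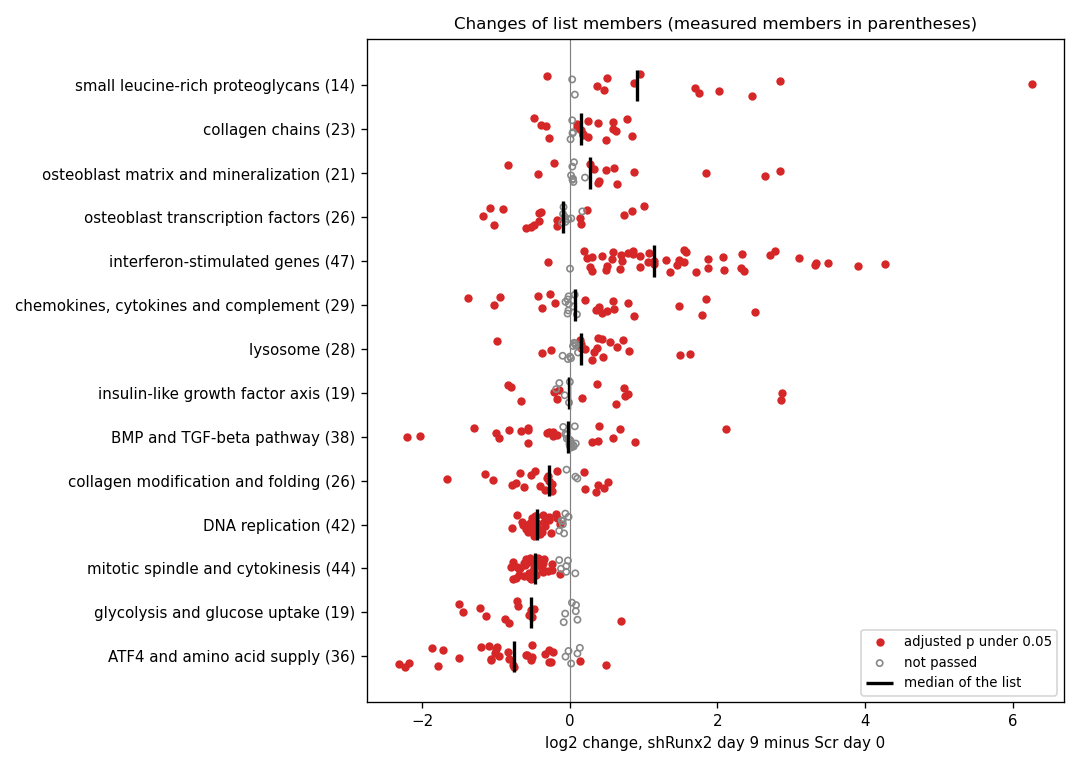
Log2 change from Scr day 0 to shRunx2 day 9 (horizontal axis) for each measured member of 14 gene lists (rows, with the number measured). Filled points passed the test, open points did not, and the black bar is the median of the list, which is 1.14 for interferon-stimulated genes, 0.91 for small leucine-rich proteoglycans and -0.76 for the ATF4 list.

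Genes of the mineralizing osteoblast rose in part. Of 21 measured genes of bone matrix and mineralization, 11 rose and 3 fell from day 0 to shRunx2 day 9, 6 and 1 of them by at least 1.5-fold, with a median of 0.27. Over the same time in Scr cells 14 rose and 3 fell, with a median of 0.41. In the test of the difference 9 were lower and 0 higher in shRunx2 cells, and 6 were lower without Scr day 9 replicate 1. At an unadjusted p under 0.05 in the same limma model, 10 were lower and 1, Ogn, was higher.

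Ibsp, which encodes bone sialoprotein, a nucleator of hydroxyapatite, read 10.14, 10.07 and 10.11 in shRunx2 cells, 11.16, 11.27 and 11.26 in Scr cells at day 9 and 7.47, 7.41 and 7.52 at day 0. The 3 groups did not overlap, and the shRunx2 arrays lay between the other two. Its rise of 2.64 (SE 0.044, 6.23-fold, adjusted p = 6.29e-12) was smaller than in Scr cells by 1.12 (adjusted p = 1.05e-07). Mmp13, collagenase 3, read 10.78, 10.57 and 10.79, 11.90, 11.81 and 11.78 and 8.92, 8.82 and 8.87 in the same order of groups. It rose by 1.84 (SE 0.06) with the Runx2 hairpin and by 2.96 with the scramble hairpin, and the difference was -1.11 (adjusted p = 1.63e-06). Phex, an endopeptidase of phosphate homeostasis, had the largest difference. It read 7.85, 7.85 and 7.86 in shRunx2 cells, 9.77, 9.89 and 9.71 in Scr cells and 7.37, 7.48 and 7.24 at day 0. Its change was 0.49 beside 2.43, a difference of -1.94 (SE 0.062, adjusted p = 4.7e-08).

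Alpl, tissue-nonspecific alkaline phosphatase, read 9.15, 9.15 and 9.15 in shRunx2 cells, 10.07, 9.86 and 9.76 in Scr cells at day 9 and 8.39, 8.59 and 8.55 at day 0. The equal values of the 3 shRunx2 arrays are as deposited, and 383 genes (1.92%) had such equal values in that group, so that their spread is understated. Alpl rose by 0.64 in shRunx2 and 1.39 in Scr cells (difference -0.75, adjusted p = 9.26e-05). Pth1r, the receptor of parathyroid hormone, did not pass the test in shRunx2 cells, with 8.82, 8.84 and 8.93 against 8.79, 8.87 and 8.82 and a 95% interval of the change of -0.068 to 0.14, and rose by 0.45 in Scr cells. Phospho1, which frees phosphate inside matrix vesicles, rose by 0.33, Ank, a pyrophosphate transporter, by 0.38, Postn (periostin) by 0.60 and Cdh11, the osteoblast cadherin, by 0.39. Mgp (matrix Gla protein, an inhibitor of mineralization) fell by 0.43 and the phosphate transporter gene Slc20a1 by 0.84. For Ogn, Postn, Cdh11, Phospho1 and Slc20a1 the difference from Scr cells did not pass, with 95% intervals of 0.003 to 0.30, -0.12 to 0.089, -0.029 to 0.13, -0.22 to 0.005 and -0.20 to 0.044. Omd, whose rise was 0.50 smaller than in Scr cells (adjusted p = 0.0134), gave an adjusted p of 0.062 without Scr day 9 replicate 1. Sparc (osteonectin) changed by 0.058, and Mepe and Dmp1, genes of late osteoblasts and osteocytes, by 0.018 and 0.21, none of which passed.

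**Figure D3:**
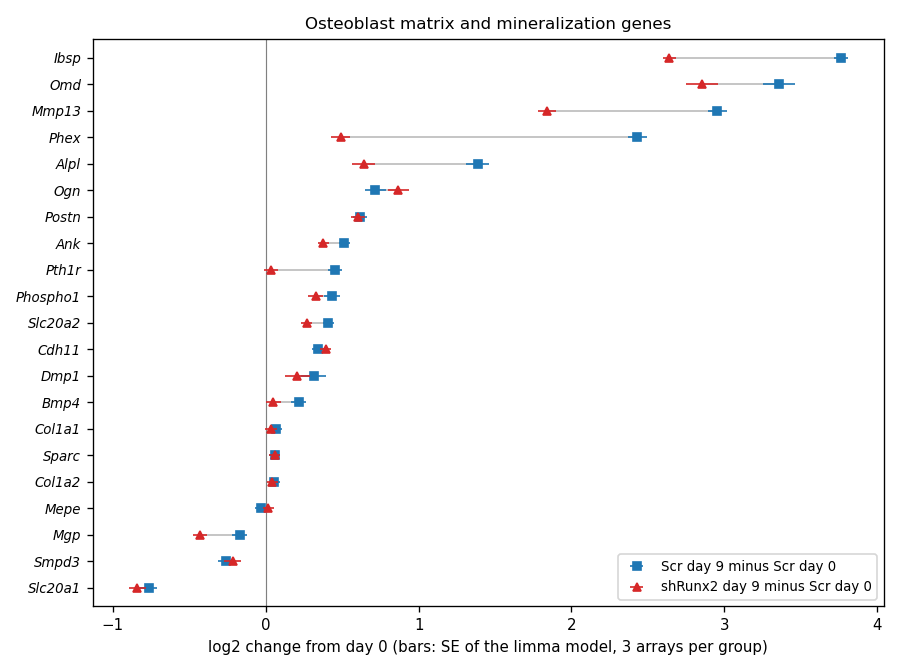
Log2 change from day 0 in shRunx2 cells (triangles) and Scr cells (squares) for 21 genes of bone matrix and mineralization, with the SE of the limma model as bars. The triangles of Ibsp, Mmp13, Phex, Alpl and Pth1r lie to the left of the squares by 0.42 to 1.94, and those of Postn, Sparc and the collagen I genes nearly coincide with them.

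To show the sequences on which a runt-domain factor could act, the promoters of this list were read from RefSeq (GRCm38.p6; 250 bases before to 50 after the start of each gene) and searched on both strands for the Runx letters TGTGGT, which read ACCACA on the other strand. The letters were held by 6 of the 16 list genes that have a promoter there (37.5%). They were held by 16.4% of 15613 tested genes with a promoter and by 16.8% of all 32851 promoters. Here and below, a gene counts when any of its promoters holds the letters. Those shown are the 4 holders with the smallest adjusted p in shRunx2 day 9 against Scr day 0, in the sense of the gene, with the match in capitals.
Mmp13 (chr9:7272366-7272431, + strand): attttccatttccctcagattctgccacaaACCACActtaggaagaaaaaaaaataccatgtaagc
Slc20a1 (chr2:129198666-129198731, + strand): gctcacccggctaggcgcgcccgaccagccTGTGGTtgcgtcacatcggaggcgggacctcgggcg
Ogn (chr13:49607920-49607985, + strand): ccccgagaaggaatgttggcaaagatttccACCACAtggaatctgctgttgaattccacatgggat
Dmp1 (chr5:104202423-104202488, + strand): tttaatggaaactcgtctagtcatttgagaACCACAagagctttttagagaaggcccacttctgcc
The match starts 118 bases before the start of Mmp13, which rose less with the Runx2 hairpin, and 65 bases before that of Ogn, for which the difference did not pass. For Slc20a1 and Dmp1 it starts 77 and 164 bases before. Ibsp, Alpl and Phex are not among the 6, but sequence outside these windows of 300 bases was not searched. A match of 6 letters is a description of the sequence and no evidence of binding.

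Transcription factors of the osteoblast lineage moved in both directions. Of 26 measured, 6 rose and 12 fell in shRunx2 cells, beside 13.8% and 20.4% of all genes, with a median of -0.10. The first count was 4 without shRunx2 day 9 replicate 2. Sp7, the factor next to Runx2 in the osteoblast programme, read 10.28, 10.17 and 10.19 in shRunx2 cells, 10.44, 10.41 and 10.42 in Scr cells and 9.36, 9.42 and 9.34 at day 0. It rose by 0.84 (SE 0.04) and thus by 0.21 less than in Scr cells (adjusted p = 0.00902). Zfp521, a zinc finger protein known to bind Runx2, rose by 1.01 and the nuclear receptor Nr4a1 by 0.73, both less than in Scr cells (1.27 and 1.11, adjusted p of the differences = 0.00455 and 0.000329). Msx2, a homeobox factor of early osteoblasts, read 8.55, 8.70 and 8.70 against 9.85, 9.84 and 9.81 at day 0. It fell by 1.18, Vdr (vitamin D receptor) by 1.08, Cebpd by 1.03, Twist2 by 0.90 and Atf4 by 0.59, and in Scr cells these changed by -1.28, -0.79, -1.11, -0.84 and -0.37. Bhlhe40, a factor of the circadian and hypoxia responses, fell by 0.52 in shRunx2 cells and read -0.088 in Scr cells (difference -0.43, adjusted p = 0.00203). The other runt factors, Runx1 and Runx3, fell by 0.41 and 0.40, and their partner Cbfb read -0.17, which passed but not without shRunx2 day 9 replicate 3 (adjusted p = 0.0578). Dlx5, Dlx6, Msx1, Gli1, Hey1 and Zbtb16 did not pass, with changes between -0.10 and 0.020.

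Of 13 osteocyte genes 4 rose and 3 fell, beside 13.8% and 20.4% of all genes, with a median of 0.067 and the largest change at Phex (0.49). Sost (sclerostin), Mepe, Fgf23 and Dmp1 changed by 0.009, 0.018, -0.067 and 0.21, and none of these passed. Pdpn (podoplanin) fell by 0.47.

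Genes of collagen modification, folding and export fell more often than they rose. Of 26 measured, 17 fell and 6 rose, 7 of the falls being at least 1.5-fold, with a median of -0.29. P4ha2, a subunit of the prolyl hydroxylase that needs ascorbic acid, read 9.40, 9.52 and 9.47 against 11.15, 11.15 and 11.06, a fall of 1.66. The lysyl hydroxylase gene Plod2 fell by 1.14, P4ha1 by 1.04 and P3h2 by 0.73. In Scr cells 14 fell and 7 rose. P4ha1, P3h2 and Sec24d, a coat protein of the vesicles that carry procollagen, fell further in shRunx2 cells, by 0.27, 0.20 and 0.30 (adjusted p = 0.00124, 0.00444 and 0.000525). Lox (lysyl oxidase, which cross-links collagen) read 12.39, 12.39 and 12.39 in shRunx2 cells, 12.06, 12.05 and 12.04 in Scr cells and 13.04, 13.04 and 12.95 at day 0, and so fell by 0.62 and less than in Scr cells by 0.34 (adjusted p = 0.000182). Of this list 10 were lower in shRunx2 than in Scr cells at day 9, and 5 without Scr day 9 replicate 2.

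Among 22 metalloproteinase genes and inhibitors 7 rose and 7 fell (median 0.038), where 13.8% of all genes rose and 20.4% fell. Besides Mmp13, the gelatinase gene Mmp9 rose by 1.51. Mmp16 read 9.70, 9.73 and 9.84 against 11.11, 11.09 and 10.93 and fell by 1.29, and the aggrecanase gene Adamts5 and the inhibitor gene Timp1 fell by 0.83 and 0.74. Adamts4, another aggrecanase gene, rose by 0.47 beside 0.93 in Scr cells (difference -0.45, adjusted p = 0.000621).

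The genes of DNA replication that passed had all fallen. Of 42 measured, 35 fell and 0 rose, where 13.8% of all genes rose and 20.4% fell, and the median change was -0.44. By limma at an unadjusted p under 0.05 no member was higher either. Mcm3, a subunit of the replicative helicase, read 9.71, 9.94 and 9.77 against 10.60, 10.59 and 10.58 and fell by 0.78. Mcm5 read 10.80, 10.92 and 10.93 against 11.46, 11.42 and 11.48 and fell by 0.57. In both, the groups were apart. Ticrr, Pole, Orc1 and Rrm1 fell by 0.72, 0.65, 0.63 and 0.46, and 5 members fell by at least 1.5-fold. Pcna read -0.093 and did not pass. In Scr cells 33 fell with a median of -0.33, and 2 members, Rrm1 and Cdt1, were lower in shRunx2 than in Scr cells (-0.25 and -0.19, adjusted p = 0.00151 and 0.011). For Cdt1 the difference did not pass without Scr day 9 replicate 2 or without shRunx2 day 9 replicate 1 (highest adjusted p = 0.0526).

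E2F factors switch on such genes before S phase. Their letters TTTCCCGC or TTTGGCGC were found on either strand in 12 of the 35 list genes with a promoter (34.3%). They were found in 2.56% of 15613 tested genes with a promoter and in 1.56% of all promoters. These 4 holders had the smallest adjusted p, with the match in capitals.
Mcm3 (chr1:20820263-20820323, - strand): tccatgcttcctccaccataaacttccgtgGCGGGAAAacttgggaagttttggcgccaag
Mcm5 (chr8:75109330-75109397, + strand): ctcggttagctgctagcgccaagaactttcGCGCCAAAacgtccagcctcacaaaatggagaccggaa
Mcm6 (chr1:128359778-128359845, - strand): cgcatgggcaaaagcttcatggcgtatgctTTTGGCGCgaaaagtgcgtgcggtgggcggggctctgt
Cdt1 (chr8:122568017-122568064, + strand): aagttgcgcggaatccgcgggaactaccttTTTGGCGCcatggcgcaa
The Mcm5 and Mcm6 matches in capitals start 149 and 110 bases before the start of the gene, and those of Mcm3 and Cdt1 start 19 and 32 bases after it. The windows of Mcm3 and Mcm6 hold 2 matches each, of which the first is in capitals. In the Mcm3 stretch the second stands in lower case. These are letters in a window, and what bound there was not measured.

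Mitotic genes fell as well. Of 44 genes of the spindle and cytokinesis 38 fell and 0 rose, 12 by at least 1.5-fold, with a median of -0.48 beside -0.34 in Scr cells. At an unadjusted p under 0.05 none was higher. Kif2c, a microtubule-depolymerizing kinesin, read 9.74, 9.78 and 9.75 in shRunx2 cells, 10.02, 10.03 and 10.03 in Scr cells and 10.62, 10.55 and 10.50 at day 0. Racgap1, needed for cytokinesis, read 11.24, 11.36 and 11.33, 11.60, 11.56 and 11.60 and 12.09, 12.10 and 12.05. In both genes the 3 groups were apart and the shRunx2 arrays lowest. They fell by 0.79 and 0.77, further than in Scr cells by 0.27 and 0.28 (adjusted p = 0.00144 and 0.0013). Aurka, Birc5 (survivin) and the centromeric histone gene Cenpa fell by 0.77, 0.73 and 0.69. Of the list 12 were lower in shRunx2 than in Scr cells, and 5 without shRunx2 day 9 replicate 1. Among 24 cyclins, kinases and their inhibitors 6 rose and 12 fell, beside 13.8% and 20.4% of all genes. Cdk1 fell by 0.48, Ccne1 by 0.52 and Ccnb2 by 0.43, and the inhibitor genes Cdkn2c (p18) and Cdkn1b (p27) rose by 0.53 and 0.34. Others of the list went the other way, with rises of Ccnd2 (0.45), Ccnd1 (0.19) and Cdk4 (0.18). The inhibitor gene Cdkn2d fell (-0.18), which passed in 4 of the 9 fits without 1 array. Cdkn3 fell by 0.31. Cdk6 fell by 0.40 in shRunx2 cells and read -0.066 in Scr cells (difference -0.34, adjusted p = 0.00104).

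Of all lists, the ATF4 and amino acid list had the lowest median. ATF4 is the factor that turns on amino acid synthesis, transport and transfer RNA charging. Of 36 measured genes of this list, 29 fell and 2 rose, 20 of the falls by at least 1.5-fold. The median was -0.76 beside -0.64 in Scr cells, where 29 fell. Bcat1, which starts the breakdown of branched-chain amino acids, read 9.69, 9.72 and 9.66 in shRunx2 cells, 10.45, 10.45 and 10.45 in Scr cells and 12.00, 12.00 and 12.02 at day 0. Asns (asparagine synthetase) read 11.76, 11.84 and 11.73, 12.40, 12.46 and 12.42 and 13.56, 13.59 and 13.53. Chac1, which degrades glutathione, read 9.56, 9.70 and 9.71, 10.53, 10.49 and 10.33 and 11.83, 11.85 and 11.84. In all 3 the groups were apart, in the order shRunx2 day 9, Scr day 9 and day 0 from low to high. The falls were 2.31, 1.79 and 2.18, exceeding those of Scr cells by 0.76, 0.65 and 0.79 (adjusted p = 2.67e-07, 2.69e-06 and 9.11e-06). The mitochondrial folate enzyme gene Aldh1l2 fell by 2.23, the cystine transporter gene Slc7a11 by 1.87, the glycine transporter gene Slc6a9 by 1.72 and Mthfd2 by 1.51. In the test of the difference 18 members were lower and 1 higher, Atf3, whose difference did not pass without any 1 of the 6 day 9 arrays (highest adjusted p = 0.121). Phgdh, the first enzyme of serine synthesis, read -0.057 and did not pass.

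Of 19 genes of glycolysis and glucose uptake 12 fell and 1 rose (median -0.52, in Scr cells -0.59). Slc2a1, the glucose transporter GLUT1, read 11.35, 11.53 and 11.37 against 12.90, 12.97 and 12.87 and fell 2.82-fold. Pfkl, a phosphofructokinase subunit, read 9.88, 9.86 and 9.88 against 11.38, 11.22 and 11.36 and fell by 1.45, further than in Scr cells by 0.28 (adjusted p = 0.0027). Pgk1, Pdk1 and Hk2 fell by 1.21, 1.13 and 0.87, and the gene that rose was Eno2, an enolase (0.69). Cholesterol genes showed small changes in shRunx2 cells: of 19 members 9 fell and 2 rose (median -0.10), while in Scr cells 4 fell and 6 rose (median 0.052). At day 9, 15 of them were lower in shRunx2 than in Scr cells, and 8 without shRunx2 day 9 replicate 1. Insig1, which retains the cholesterol sensor in the endoplasmic reticulum, read 11.91, 11.97 and 11.96 in shRunx2 cells, 12.62, 12.67 and 12.59 in Scr cells and 11.80, 11.80 and 11.71 at day 0. Its difference was -0.68 (SE 0.041, adjusted p = 2.63e-06), and that of Hmgcs1, an enzyme of the first steps of the pathway, -0.32 (adjusted p = 0.0011).

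Interferon-stimulated genes were higher at day 9 with the Runx2 hairpin than at day 0, and higher than in Scr cells. Such genes are switched on after type I interferon and include sensors and effectors of antiviral defence. Of 47 measured, 45 rose and 1 fell, 36 of the rises being at least 1.5-fold, with a median of 1.14. In Scr cells 31 rose and 2 fell, with a median of 0.36. At day 9, 41 of the list were higher in shRunx2 than in Scr cells and 0 lower, and at an unadjusted p under 0.05, 45 were higher and 0 lower. Leaving out any 1 array gave 40 to 42 higher. All 3 groups carried a lentivirus and an shRNA, and the part of infection, of the hairpin's sequence and of Runx2 in these values was not tested.

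Ifit3, a tetratricopeptide antiviral protein, read 12.71, 12.74 and 12.68 in shRunx2 cells, 11.05, 10.97 and 10.85 in Scr cells and 8.32, 8.48 and 8.52 at day 0. It rose by 4.27 (SE 0.061, 19.4-fold), 1.75 more than in Scr cells (adjusted p = 7.47e-08). Ifit3b read 9.24, 9.22 and 9.06, 7.05, 6.97 and 6.78 and 6.02, 5.58 and 5.42, and its difference of 2.24 was the largest in the list. Ifit3 and Ifit3b are similar in sequence and their probes may share signal. Ifi27l2a read 11.88, 12.07 and 12.08, 10.36, 10.10 and 9.77 and 8.07, 8.11 and 8.15, with a wider spread among Scr day 9 arrays than in the other groups. In all 3 genes the order from low to high was day 0, Scr day 9 and shRunx2 day 9 without overlap. Oas2, which makes the 2-5A messenger that activates RNase L, rose by 3.11 beside 1.19, Usp18, which removes ISG15 from proteins, by 2.79 beside 1.16, Phf11d by 2.72 beside 0.86 and the guanylate-binding protein gene Gbp7 by 2.32 beside 0.96.

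Sensors and factors of the pathway rose too. Irf7, the factor that amplifies interferon production, read 10.16, 10.43 and 10.05 in shRunx2 cells, 9.11, 9.09 and 8.80 in Scr cells and 8.60, 8.70 and 8.70 at day 0. It rose by 1.54 beside 0.33. Stat2 and Irf9 rose by 0.79 and 1.06 (in Scr cells 0.061, which did not pass, and 0.28). The RNA sensor genes Ifih1 (MDA5) and Dhx58 (LGP2) rose by 1.45 and 2.09 beside 0.64 and 0.99, and Ddx58 (RIG-I) rose by 0.30 where it fell by 0.22 in Scr cells. Irf1, a factor shared with the interferon gamma response, fell by 0.30 and was the only list member that fell. With the mean of a gene's probe sets as its value, 0 members of the list fell, so this fall was not found under that choice. In Scr cells the change of Irf1 lay lower still, as the plot of interferon-stimulated genes shows, but the difference between the day 9 groups did not pass. Epsti1 changed by 0.004 and did not pass. Among 18 genes of antigen presentation by class I molecules, 11 rose and 2 fell, but 7 rose without Scr day 0 replicate 1, without Scr day 0 replicate 3 or without shRunx2 day 9 replicate 2, and 1 fell without Scr day 0 replicate 2 or without shRunx2 day 9 replicate 1. The immunoproteasome genes Psmb9 and Psmb8 rose by 0.99 and 0.84 and H2-Q4 by 0.92, all more than in Scr cells (adjusted p of the differences = 0.000117, 0.000178 and 0.0013). Class I genes resemble each other, so a reading may hold signal of several.

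**Figure D4:**
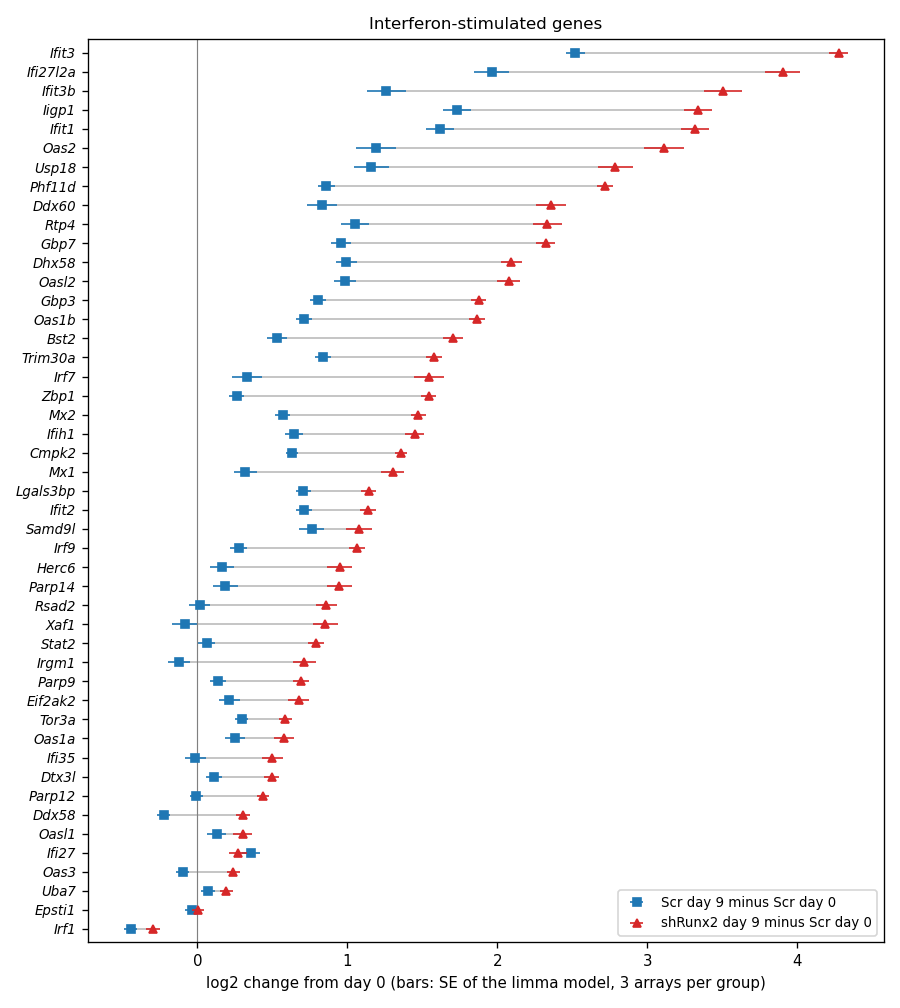
Log2 change from day 0 in shRunx2 cells (triangles) and Scr cells (squares) for 47 interferon-stimulated genes, ordered by the former, with the SE of the limma model as bars. The triangle lies to the right of the square for 46 genes and to the left for Ifi27, and 41 of the differences passed the test.

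The interferon-stimulated response element is a site bound by IRF factors, and its core was searched as GAAANNGAA on both strands. It was found in 17 of the 33 list genes with a promoter (51.5%). It was found in 9.2% of 15613 tested genes with a promoter and in 8.56% of all promoters. The 4 holders with the smallest adjusted p were the following, with the match in capitals, which reads on the other strand in each.
Ifit3 (chr19:34583344-34583412, + strand): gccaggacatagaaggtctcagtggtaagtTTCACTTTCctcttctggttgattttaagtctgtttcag
Gbp7 (chr3:142530254-142530322, + strand): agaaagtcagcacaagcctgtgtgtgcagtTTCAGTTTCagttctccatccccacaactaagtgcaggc
Gbp3 (chr3:142559970-142560038, + strand): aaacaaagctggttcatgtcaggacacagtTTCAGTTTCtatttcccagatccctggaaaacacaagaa
Ifit1 (chr19:34640750-34640818, + strand): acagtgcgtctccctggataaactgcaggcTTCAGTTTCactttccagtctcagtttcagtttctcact
The matches start 155, 52, 44 and 109 bases before the start of Ifit3, Gbp7, Gbp3 and Ifit1. The windows of Ifit3 and Ifit1 hold 3 matches each and that of Gbp3 holds 2. As above, the letters are a description.

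Chemokines and complement genes were mixed. Of 29 measured 13 rose and 7 fell (median 0.067), beside 13.8% and 20.4% of all genes. Ccl5, a T cell chemokine, read 11.75, 11.94 and 11.80 in shRunx2 cells, 10.89, 10.75 and 10.75 in Scr cells and 9.22, 9.39 and 9.37 at day 0, and rose by 2.50. Cxcl10, an interferon-induced chemokine, read 10.54, 10.81 and 10.63, 9.56, 9.55 and 9.46 and 9.25, 9.19 and 9.09, and rose by 1.48. Both rose more than in Scr cells, by 1.03 and 1.13 (adjusted p = 2.85e-06 and 2.41e-06). Il33, a nuclear cytokine, rose by 1.84 and less than in Scr cells by 0.79 (adjusted p = 0.000591). The complement protease gene C1s1 rose by 1.79, and Il6, Cxcl12 and Lif fell by 1.38, 1.03 and 0.94. Tnfrsf11b, the decoy receptor osteoprotegerin that restrains osteoclasts, fell by 0.43 beside 0.88 in Scr cells.

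The BMP and TGF-beta list held 38 measured genes, of which 7 rose and 15 fell (median -0.025). Of all genes 13.8% rose and 20.4% fell. Id2 and Id3, immediate targets of BMP signals that block basic helix-loop-helix factors, fell most. Id2 read 8.79, 8.89 and 8.84 in shRunx2 cells, 9.59, 9.57 and 9.56 in Scr cells and 10.97, 11.05 and 11.12 at day 0. Id3 read 8.39, 8.54 and 8.09, 9.17, 9.18 and 9.06 and 10.35, 10.31 and 10.45. The 3 groups were apart in both, and the falls of 2.21 and 2.03 exceeded those of Scr cells by 0.74 and 0.80 (adjusted p = 2.43e-06 and 0.000306). The inhibitory Smad genes Smad7 and Smad6 fell by 0.83 and 0.67 and the matrix protein gene Tgfbi by 1.30. The ligand gene Tgfb2 rose by 2.12 (SE 0.067), beside 2.11 in Scr cells (95% interval of the difference -0.13 to 0.16). Bmp2, Bmp4, Bmp6 and Bmp7 read 0.053, 0.050, 0.021 and -0.003, and none passed.

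In the insulin-like growth factor axis 8 of 19 genes rose and 6 fell (median -0.010), beside 13.8% and 20.4% of all genes. The ligand gene Igf2 read 11.62, 11.62 and 11.65 against 8.54, 8.97 and 8.79 and rose by 2.86 (SE 0.087). The binding protein gene Igfbp5 read 11.45, 11.38 and 11.46 against 8.47, 8.58 and 8.60 and rose by 2.88 (SE 0.042). The groups were apart in both. Igfbp5 rose 0.41 more than in Scr cells (adjusted p = 0.000124), and for Igf2 the 95% interval of the difference was -0.31 to 0.073. Igfbp4, Igfbp2 and Irs1 rose by 0.79, 0.75 and 0.74, and the receptor gene Igf1r fell by 0.67. Htra1, a secreted protease that cleaves binding proteins, rose by 0.63, less than in Scr cells by 0.74 (adjusted p = 5.1e-07).

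Of 25 Wnt antagonists and targets 7 rose and 6 fell (median 0.022), where 13.8% of all genes rose and 20.4% fell. Tnfrsf19, a Wnt-responsive receptor of the TNF family, read 10.21, 10.20 and 10.23 in shRunx2 cells, 11.16, 11.09 and 11.16 in Scr cells and 8.78, 8.88 and 8.79 at day 0. The antagonist gene Dkk2 read 9.53, 9.61 and 9.56, 8.81, 8.90 and 8.95 and 8.15, 8.18 and 8.24. In both the shRunx2 arrays lay above day 0, by 1.40 and 1.38, but below Scr cells for Tnfrsf19 (-0.92, adjusted p = 2.67e-07) and above them for Dkk2 (0.68, adjusted p = 5.89e-06). Axin2, a feedback target of the pathway, rose by 0.59 and Sfrp2 by 0.49. Sfrp1 rose by 0.29 and read -0.056 in Scr cells (adjusted p of the difference = 0.00194). The agonist gene Rspo2 fell by 1.71 and the ligand gene Wnt5a by 0.80, with differences from Scr cells of 0.014 and 0.013 and 95% intervals of -0.18 to 0.21 and -0.11 to 0.13.

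Hormone and vitamin receptors are part of the mature osteoblast's equipment. Of 24 genes of such receptors and of the retinoic acid pathway 10 rose and 6 fell (median 0.021). Of all genes 13.8% rose and 20.4% fell. The 6 that fell were all receptor genes: Npr3 (-3.17), Vdr (-1.08), Ptger4 (-0.66), Rxra (-0.35), Rara (-0.34) and Rarg (-0.27). The growth hormone receptor gene Ghr read 11.97, 11.91 and 12.01 against 10.94, 10.92 and 10.81 and rose by 1.07. The thyroid hormone receptor gene Thrb rose by 1.08, the glucocorticoid receptor gene Nr3c1 by 0.85 and the estrogen receptor gene Esr1 by 0.69. Thrb rose more than in Scr cells by 0.33 (adjusted p = 0.000705). In the retinoic acid pathway the binding protein gene Crabp2 read 11.79, 11.72 and 11.92 in shRunx2 cells, 12.26, 12.27 and 12.25 in Scr cells and 11.55, 11.28 and 11.43 at day 0, and the synthesis enzyme gene Aldh1a3 read 9.69, 9.75 and 9.68, 10.24, 10.20 and 10.18 and 9.35, 9.35 and 9.30. Both rose, by 0.39 and 0.38, and less than in Scr cells by 0.44 and 0.50 (adjusted p = 0.00198 and 1.13e-05).

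Immediate early genes and cytoskeletal genes mostly fell among those that passed, as did all genes together (4063 fell and 2754 rose). Of 25 AP-1 subunits and immediate early genes 15 fell and 6 rose (median -0.30), beside 20.4% and 13.8% of all genes. Fosl1 read 8.86, 9.08 and 8.94 against 11.42, 11.48 and 11.56, and Fos, Fosl2, Junb and Jun fell by 0.91, 0.81, 0.75 and 0.52. Egr1, a serum response gene, fell by 0.34 in shRunx2 cells and rose by 0.15 in Scr cells. Of 25 cytoskeletal genes and targets of serum response factor 12 fell and 4 rose (median -0.12), where 20.4% of all genes fell and 13.8% rose. Ankrd1, a stretch-responsive gene, read 10.01, 10.18 and 9.98 against 11.82, 11.61 and 11.70 and fell by 1.65, less than in Scr cells by 0.40 (adjusted p = 0.00334). The focal adhesion gene Zyx fell by 0.89, and Mylk, the kinase of myosin light chain, rose by 1.25.

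Lysosomal genes rose more often than they fell. Of 28 measured, 16 rose and 3 fell (median 0.15). The cathepsin gene Ctsk read 11.33, 11.28 and 11.38 against 9.83, 9.64 and 9.65 and rose by 1.62, and Ctsh rose by 1.49, Gaa by 0.80 and Npc2 by 0.72. Npc1, which exports cholesterol from lysosomes, fell by 0.99, further than in Scr cells by 0.43 (adjusted p = 1.85e-05). Of 37 ribosomal protein genes 9 rose and 2 fell (median 0.049), beside 13.8% and 20.4% of all genes. With each array centred on its median 4 rose and 4 fell, and the count of rises was 2 without Scr day 0 replicate 2, 3 without shRunx2 day 9 replicate 3, 4 without Scr day 0 replicate 1 or shRunx2 day 9 replicate 1, and 5 without Scr day 9 replicate 3. Among 12 genes often used as references 2 rose and 3 fell, with Pgk1 at -1.21, Polr2a at -0.78, B2m at 0.51, Gusb at 0.37 and Tbp at -0.14, the last of which did not pass without Scr day 0 replicate 1 or 2 or shRunx2 day 9 replicate 1 or 2 (highest adjusted p = 0.124). In the same list Hprt, Actb, Ppia and Sdha read -0.063, 0.041, -0.079 and 0.003 without passing.

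Some genes changed by at least 1.5-fold in shRunx2 cells and by less in Scr cells, with a difference that passed the test. The values of this choice are a description, since the differences chose the genes. The 8 with the largest differences upward were Gm12250 (2.18 beside 0.47), an immunity-related GTPase gene, Sp100 (1.20 beside -0.10), a nuclear body protein, Zbp1 (1.54 beside 0.26), a sensor of nucleic acids, Irf7, Bst2 (1.70 beside 0.53), the tether of budding virions, Cxcl10, Slfn2 (1.40 beside 0.34) and Mx1 (1.30 beside 0.32). Sp100 read 10.34, 10.43 and 10.22 in shRunx2 cells, 9.22, 9.00 and 8.87 in Scr cells and 9.22, 9.10 and 9.07 at day 0, so that only the last pair of groups overlapped. The 8 downward were Pdlim1 (-0.85 beside -0.029), an actin-associated adaptor, Hs3st3a1 (-1.01 beside -0.19) and Glce (-0.84 beside -0.33), enzymes of heparan sulfate, Entpd7 (-1.16 beside -0.42), Khsrp (-0.85 beside -0.22), an RNA-binding protein, Sel1l (-0.80 beside -0.25) and Spcs3 (-0.80 beside -0.28) of the endoplasmic reticulum, and Adamts12 (-0.87 beside -0.35). Pdlim1 read 11.02, 11.03 and 11.09 in shRunx2 cells, 11.89, 11.89 and 11.82 in Scr cells and 11.93, 11.79 and 11.96 at day 0.

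Others changed by at least 1.5-fold in Scr cells and by less with the Runx2 hairpin, chosen likewise by the test of the difference. The 8 with the largest rise in Scr cells were Phex, Adamts4, Edil3, a matrix integrin ligand (0.37 beside 1.37 in Scr cells), Adgrf5, an adhesion receptor (0.45 beside 1.28), Ggt5 (0.54 beside 1.09), F7, coagulation factor VII (0.39 beside 1.01), the transcription factor Mitf (0.46 beside 0.98) and the kinase anchor Akap12 (0.51 beside 0.93). Edil3 read 9.69, 9.54 and 9.69 in shRunx2 cells, 10.76, 10.60 and 10.57 in Scr cells and 9.37, 9.20 and 9.25 at day 0. The 8 with the largest fall in Scr cells were Dhrs9, a retinol dehydrogenase (-0.46 beside -1.32), Gatm, of creatine synthesis (-0.33 beside -1.11), the tight junction gene Cldn1 (-0.22 beside -1.05), the death ligand gene Tnfsf10 (-0.29 beside -0.92), the taurine transporter gene Slc6a6 (-0.57 beside -0.92), Ccn2, connective tissue growth factor (-0.56 beside -0.90), Arxes2 (-0.48 beside -0.92) and Plscr2 (-0.55 beside -0.91). Insig1, Aldh1a3 and Crabp2, described above, met the same rule with smaller rises in Scr cells (0.85, 0.87 and 0.84). Cldn1 read 10.82, 10.80 and 10.90 in shRunx2 cells, 9.97, 10.04 and 10.02 in Scr cells and 11.11, 11.09 and 10.98 at day 0.

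**Figure D5:**
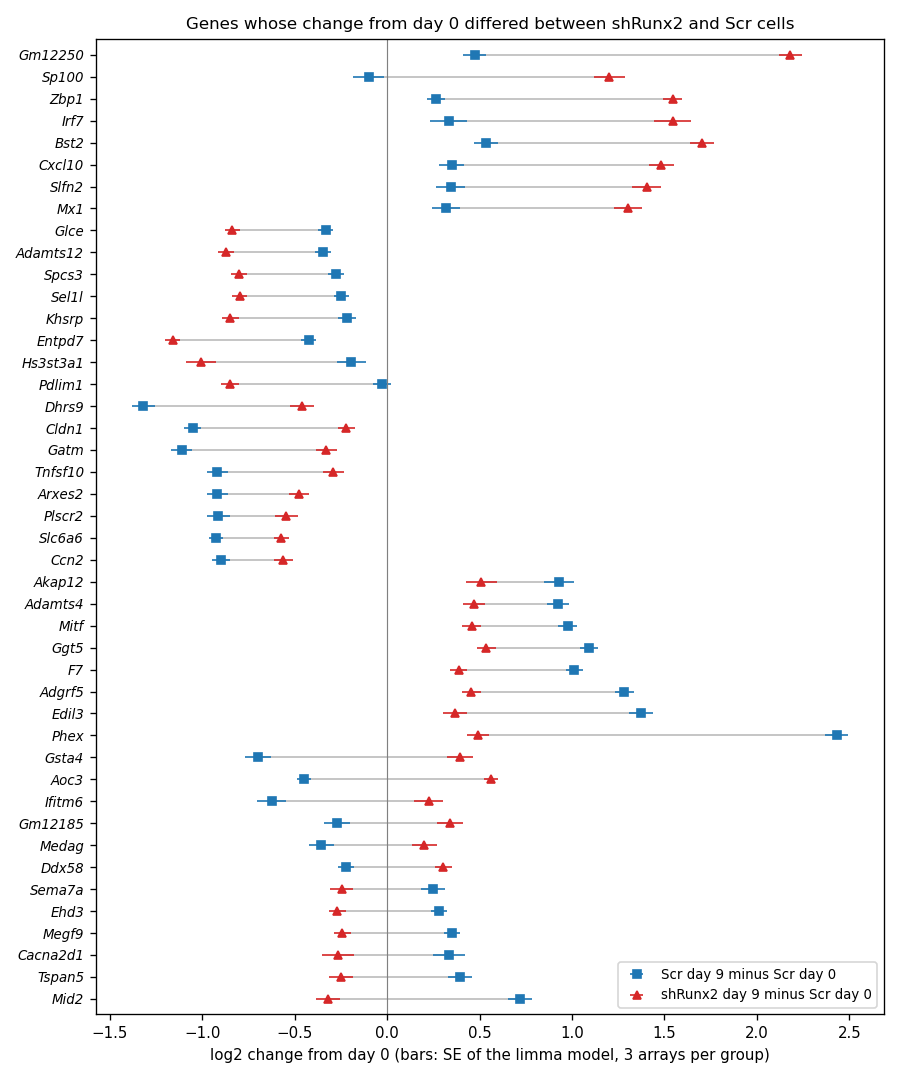
Log2 change from day 0 in shRunx2 cells (triangles) and Scr cells (squares), with the SE of the limma model as bars, for genes chosen by their values. From the top, 16 passed 1.5-fold in shRunx2 cells alone and 16 in Scr cells alone, chosen also by the test of their difference. The last 12 were chosen because both changes passed in opposite directions. Phex shows the widest gap, with 0.49 in shRunx2 and 2.43 in Scr cells, and the 12 genes at the bottom have 1 point on each side of 0.

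Markers bore on the labelled cell type and on other cells. Their counts are to be read beside the 13.8% of all genes that rose and the 20.4% that fell. Of 8 osteoblast markers 5 rose and 0 fell in shRunx2 cells, and the mean log2 level of the list was 10.2 in each day 0 array, 11.4 in each Scr day 9 array and 10.8 in each shRunx2 array. Of 16 macrophage and leukocyte markers 3 rose and 1 fell, namely Lyz2 (1.22, in Scr cells 0.80), Lyz1 (0.38) and Fcer1g (0.23) upward, and Cd14 (-0.18). Ptprc, Cd68, Adgre1, Csf1r and Itgam, which define such cells, read 0.070, -0.047, -0.020, -0.041 and -0.023 and did not pass, and the mean level of the list was 7.749 to 7.783 at day 0, 7.798 to 7.846 in Scr cells at day 9 and 7.846 to 7.885 in shRunx2 cells. Osteoclast markers gave 3 rises of 10, Ctsk, Mmp9 and Itgb3 (0.22), while Acp5, Calcr, Ocstamp and Dcstamp read -0.047, 0.074, -0.034 and 0.023. Of 15 adipocyte markers 1 rose, Cebpa (0.44), and 2 fell, Dgat2 (-0.70) and Scd1 (-0.27), and Pparg, Adipoq, Fabp4 and Plin1 did not pass (-0.035, -0.0003, -0.15 and 0.040).

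Of 16 chondrocyte markers 5 rose and 0 fell, and 3 rose without Scr day 0 replicate 1 or 2 or without shRunx2 day 9 replicate 1 or 2. The largest was Sox6 at 0.59, and Col2a1, Acan and Col10a1 read -0.075, -0.037 and -0.14. Of 16 skeletal muscle markers 0 rose and 0 fell by limma, also at an unadjusted p under 0.05, and 1 rose without shRunx2 day 9 replicate 3. Of 10 smooth muscle markers 2 rose and 2 fell, Synpo2 by 0.73 and Actg2 by 0.41, and none rose without Scr day 0 replicate 2, shRunx2 day 9 replicate 1 or shRunx2 day 9 replicate 2. Of 12 endothelial markers 2 rose, Ramp2 (0.79) and Flt1 (0.22), and 0 fell, while Pecam1, Cdh5 and Kdr read 0.075, 0.033 and 0.019. Over all genes 13.8% rose and 20.4% fell, and the rises in the smooth muscle and endothelial lists are near the first share. Arrays have no true zero, so a reading near its day 0 value does not show that a transcript is absent.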

How the data were processed

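Each of the 9 RNA samples was read on its own Mouse Gene 1.0 ST array (Affymetrix). The values used are log2 expression as deposited by the authors after RMA, a method of background correction, quantile normalization and median polish over the probes of a set. The submitters' processing notes name RMA and limma, and the log2 scale was read from the values. The median over all probe sets was 8.4158, 8.4477 and 8.4377 in Scr day 0, 8.4655, 8.4708 and 8.4874 in Scr day 9 and 8.499, 8.5098 and 8.4833 in shRunx2 day 9 arrays. In these groups 308, 291 and 383 genes had 3 equal values (within 0.000001), for which the SD understates the spread, and the cause was not tested. Scanner intensities were not used here, so signal over background is unknown, and the number of arrays limits the precision.

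Of 34760 probe sets, 21640 had 1 gene symbol, 1321 several and 11799 none in the platform annotation. A gene with several probe sets (954 of 19937) was read from the one with the highest mean over the 9 arrays. No symbol was changed by the RefSeq table, which held 19855 of the genes, and 7 list members were found under another symbol. Groups came from the sample labels.

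Group means were fitted with lmFit and eBayes of limma 3.58.1 in R 4.3.3 over all 9 arrays, without covariates, and contrasts were tested two-sided with Benjamini-Hochberg adjustment over 19937 genes, at 0.05. The fit was tested on simulated data. Named genes were the 15 of largest rise and 15 of largest fall, in each list those of smallest adjusted p (up to 6) and of largest difference between the day 9 groups (up to 4), all measured bone matrix genes and osteoblast factors, and the genes with changes past 1.5-fold in 1 hairpin group alone or in opposite directions. Other list members in the text were chosen after their values were seen. The comparison and all lists were chosen with earlier results of these data known. Alternatives were another normalization, centring, probe set choice, filter, variance prior, array weights, a replicate block, fits on fewer arrays and leaving out each array in turn.

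Promoters (GRCm38.p6, RefSeq) were searched for fixed letters on both strands. No genome build is given for the arrays in the sources used here. Runx2 itself is not analysed here.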

Additional observations from a re-analysis of the deposited data

Results flagged for a closer look

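For 16 named genes the change from day 0 passed the test in opposite directions in shRunx2 and Scr cells, and the difference between the day 9 groups passed as well. That difference is the change in shRunx2 cells minus the change in Scr cells, from the same day 0 arrays. With opposite signs it is larger in size than either change, so its passing adds no independent support. Higher in shRunx2 cells were Gsta4, a glutathione transferase (difference 1.09, adjusted p = 4.07e-06), Aoc3, an amine oxidase (1.01, adjusted p = 1.05e-07), Ifitm6 (0.85), Gm12185 (0.61), Medag (0.56) and Ddx58 (0.53). Gsta4 read 9.74, 10.06 and 9.90 in shRunx2 cells, 8.89, 8.72 and 8.82 in Scr cells and 9.49, 9.50 and 9.52 at day 0. Aoc3 read 9.95, 10.02 and 9.94, 8.97, 8.99 and 8.93 and 9.45, 9.38 and 9.40. In both the day 0 arrays lay between the day 9 groups.

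Lower in shRunx2 cells were Mid2, a ubiquitin ligase (-1.04, adjusted p = 3.04e-06), the tetraspanin gene Tspan5 (-0.64), the calcium channel subunit gene Cacna2d1 (-0.60), Megf9 (-0.59), Ehd3 (-0.55), Tnc (-0.53), the serum response genes Egr2 (-0.50) and Egr1 (-0.49), the semaphorin gene Sema7a (-0.49) and the kinetochore gene Cenpf (-0.26). Mid2 read 8.44, 8.34 and 8.35 in shRunx2 cells, 9.58, 9.30 and 9.36 in Scr cells and 8.74, 8.68 and 8.66 at day 0. The changes from day 0 were -0.31 and 0.19 for Egr2 and -0.14 and 0.12 for Cenpf, in shRunx2 and Scr cells in turn. The change in shRunx2 cells was near the threshold for Ifitm6 (highest adjusted p over 18 alternatives = 0.166), Medag (0.144), Cacna2d1 (0.117) and Tnc (0.105), while their differences between the day 9 groups passed in each of the 18.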

How the results depend on the processing

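Of 259 named genes that passed in shRunx2 day 9 against Scr day 0, 68 of 4629 values under the alternatives, in 12 genes, did not pass, and none of the named genes changed sign past the threshold. The 170 passing differences between the day 9 groups were less firm, with 224 of 3034 values, in 34 genes, that did not pass. Leaving out 1 array at a time gave 2420 to 2849 genes higher and 3526 to 4163 lower in shRunx2 day 9 against Scr day 0, and 552 to 599 and 516 to 590 with at least 1.5-fold. In shRunx2 against Scr cells at day 9 it gave 355 to 542 higher and 503 to 960 lower, the lowest of both without Scr day 9 replicate 2. With every probe set tested, which counts 34760 probe sets and not genes, 1210 were higher by at least 1.5-fold in shRunx2 day 9 and 992 in Scr day 9 against day 0, and between the day 9 groups 590 were lower at any fold and 138 were higher by at least 1.5-fold. With array weights, 917 were higher and 1673 lower between the day 9 groups, and the cause was not tested.

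The groups share replicate numbers in the labels. Deviations of same-numbered arrays correlated at -0.114 to 0.129 where shRunx2 arrays were involved. Between Scr day 0 and Scr day 9 they correlated at 0.294, 0.082 and 0.285, beside -0.293 to 0.11 for arrays of different number. The numbers were not taken as pairs in the main fit, and whether the Scr cultures were paired is not known. With the number as a replicate block, 2852 genes were higher and 4145 lower in shRunx2 day 9 against Scr day 0, and 580 and 556 with at least 1.5-fold.

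With 3 arrays a group from 1 line and 1 Runx2-directed hairpin, p-values measure the spread between these cultures only. Day and hairpin cannot be told apart in the comparison with day 0, and the difference between the day 9 groups holds the hairpin but not the time. Probe levels near background compress changes, and their share was not tested.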
